A study of Homo sapiens with 12 samples.

Results

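The transcriptome of MDA-MB-231 cells that carried a guide RNA against UFM1 (sgUFM1, 3 libraries) was compared with that of the control-guide cells paired with them by title (sgCtrl_to_sgUFM1, 3 libraries, called the controls below). These are 6 of the 12 libraries of the series, chosen by the column names of the FPKM table. The other 6 are cells with a guide against UFL1 (sgUFL1) and their own controls (sgCtrl_to_sgUFL1), with 3 libraries each. MDA-MB-231 is a much-used line of human breast carcinoma, triple-negative and basal-like, and all groups share this background. The series title calls the perturbation a knockdown and its design text a knockout. Guide sequences, the Cas protein, the time after guide delivery and whether cells were a pool or a clone are not given in the sources at hand, so what belongs to 1 guide or 1 culture cannot be told apart from loss of UFM1. The 3 libraries that the FPKM table names as these controls carry the names sgUFL1_1 to sgUFL1_3 in the count table. The 2 tables were matched library by library and the FPKM names are used throughout, so under the count table's names the same numbers would compare sgUFM1 with sgUFL1. Both tables name sgCtrl_to_sgUFL1 alike. Against that set, the libraries used as controls gave 0 called genes of 14996 (edgeR adjusted p under 0.05, corrected for GC content). Without the correction they gave 162 higher and 3 lower. The libraries that the FPKM table names sgUFL1 gave 585 higher and 424 lower of 15175 with it. Which table's names are right was not tested.

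UFM1 is a small ubiquitin-like protein. It is carried by UFC1 and joined to its targets by the ligase UFL1 with the membrane adaptor DDRGK1, and the proteases UFSP1 and UFSP2 process it and take it off again. Its best-known target is a large-subunit protein of ribosomes docked on the translocon of the endoplasmic reticulum (ER), and the pathway is known for its part in ER protein quality control and in the turnover of ER by autophagy.

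Read totals were close to each other, at 15342793 to 16168105 counts in sgUFM1 and 15479597 to 16043380 in the controls. The count-weighted GC content of the counted genes was 49.8% to 50.3% in sgUFM1 and 50.3% to 50.5% in the controls, and mitochondrial genes held 3.12% to 3.73% of counts in sgUFM1 and 3.42% to 3.89% in the controls. Control replicate 1 stood apart: its counts differed from those of control replicates 2 and 3 by a chi-square of 20.5 and 20.1 per gene, against 2.41 between replicates 2 and 3 and 3.73 to 6.62 among the sgUFM1 libraries. The cells carried markers of the line, with VIM at 901 to 980 CPM (counts scaled to a common library total) in sgUFM1 and 789 to 926 in the controls, and CD44, EGFR, KRT18 and AXL also above 220 CPM in every library. SPARC, listed as a marker of this line too, stood at 0.782 to 1.30 CPM in sgUFM1 and 0.258 to 0.81 CPM in the controls. CDH1, the epithelial cadherin, reached at most 0.19 CPM in sgUFM1 and 0.126 CPM in the controls. Other genes listed as low in this line were not absent. ERBB2 stood at 54.3 to 56.2 CPM in sgUFM1 and 57.6 to 62.8 CPM in the controls. EPCAM stood at 7.98 to 8.6 CPM and 5.67 to 8.01 CPM. For some genes, chosen after their values were seen, control replicate 1 had counterparts in the other control set. For RELN it stood at 30.5 CPM, beside 32.2 and 34.4 CPM in sgCtrl_to_sgUFL1 replicates 1 and 3. Control replicates 2 and 3 lay at 13.9 and 13.3 CPM, beside 13.1 CPM in replicate 2 of that set. MMP3 and ESM1 were split alike. The share of genes so split was not tested. Counts without control replicate 1 are given to show dependence on it, not as a better estimate. The labels do not say whether replicates were grown as separate cultures, so the p-values cover library-to-library spread that may be technical only.

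UFM1 itself (ENSG00000120686, GRCh38 chromosome 13, 38349849 to 38363619) had 37.5, 40.1 and 39.2 CPM in sgUFM1, against 51.8, 55.1 and 52.05 CPM in the controls. The groups did not overlap, which held for 14.3% of all tested genes in the lower direction. The log2 difference was -0.58 (SE 0.09, edgeR adjusted p = 0.0056). Its call ended without sgUFM1 replicate 2 or 3 (edgeR adjusted p = 0.057 and 0.053). A transcript that carries a small deletion can still be counted, so its level does not measure the protein. UFL1 had 20.7, 25.4 and 23.6 CPM in sgUFM1, against 17.5, 18.6 and 17.4 CPM in the controls, a log2 difference of 0.24 (SE 0.10, edgeR adjusted p = 0.19), and its exons overlap the antisense gene UFL1-AS1. Of the 9 tested genes of the UFMylation list, UFM1 was the single one called, beside 3.89% higher and 2.99% lower of all genes. Without control replicate 1 the list had 0 higher and 3 lower, beside 12.7% and 14.4% of all genes. The adaptor CDK5RAP3 stood at -0.27 (SE 0.23, edgeR adjusted p = 0.53) and the conjugating enzyme UFC1 at -0.026 (SE 0.14, edgeR adjusted p = 0.94).

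Across the transcriptome, 582 of 14977 tested genes rose in sgUFM1 (3.89%) and 448 fell (2.99%) at an adjusted p under 0.05 by edgeR's quasi-likelihood test with Benjamini-Hochberg adjustment, and 85 and 73 of them by at least 2-fold. The median size of the called changes was 0.46 on the log2 scale. Groups whose CPM did not overlap were common, with 2535 of the 14977 tested genes higher (16.9%) and 2143 lower (14.3%). A lack of overlap given for a single gene below therefore adds little, and none where the gene was named for its small p. Log2 differences here are corrected for a trend with GC content that set the 2 groups apart. Without the correction, genes under 40% GC had a median log2 difference of 0.11 and those at 60% and over -0.21 (Spearman's rho of -0.32 over genes, which are not independent replicates). With offsets per library and gene the medians of all 6 GC bins lay between -0.0096 and 0.0015. The uncorrected fit called 685 higher (4.57%) and 771 lower (5.15%), and 833 calls were shared with the same sign, which is 80.9% of the corrected calls and 57.2% of the uncorrected ones. The number of calls rests on single libraries: without control replicate 1 it was 1944 higher and 2206 lower (12.7% and 14.4% of 15309 tested), without control replicate 2 or 3 it was 269 and 205 or 233 and 160, and with sgUFM1 replicate 1 left out it was 100 and 74, with replicate 2 left out 77 and 42, and with replicate 3 left out 90 and 52.

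**Figure D1:**
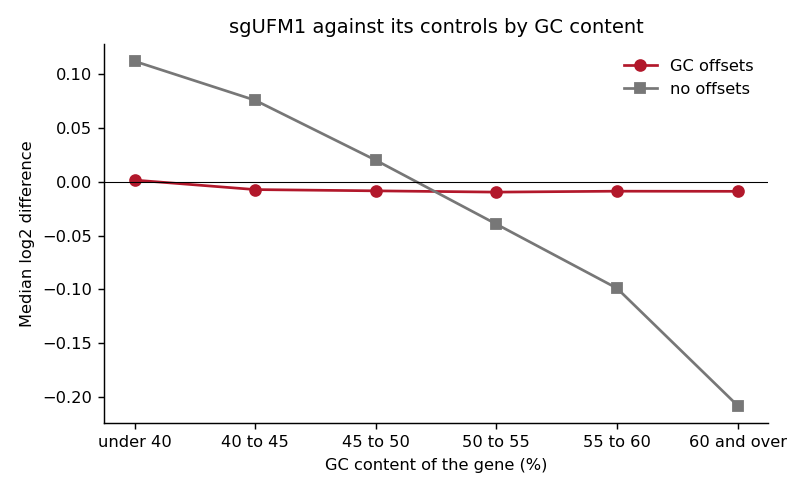
Median log2 difference of sgUFM1 from its controls (vertical axis) for genes binned by GC content in percent (horizontal axis), with GC offsets (circles) and without offsets (squares). Without offsets the medians run from 0.11 in the lowest bin to -0.21 in the highest, and with offsets all lie within 0.01 of 0.

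The genes that rose most were led by a gel-forming mucin and by surface receptors and epithelial secretory genes, and these levels stand in the plot of leading genes. MUC5AC, a gel-forming mucin of airway and stomach (ENSG00000215182, GRCh38 chromosome 11, 1157953 to 1201138), had 552, 540.2 and 399.7 CPM in sgUFM1, against 111, 86.9 and 94.7 CPM in the controls. All sgUFM1 libraries lay well above all controls, and the log2 difference was 2.47 (SE 0.11, edgeR adjusted p = 2.2e-06). BDKRB2, a receptor for bradykinin, had 43.9, 44.8 and 43.6 CPM in sgUFM1, against 8.14, 11.6 and 14.4 CPM in the controls, with a log2 difference of 1.96 (SE 0.18, edgeR adjusted p = 0.00054). CMKLR1, the receptor for the chemoattractant chemerin, had 31.7, 31.6 and 33.8 CPM in sgUFM1, against 5.68, 11.9 and 11.1 CPM in the controls. Control replicate 1 was the lowest for both receptors, and the log2 difference of CMKLR1 was 1.74 (SE 0.23, edgeR adjusted p = 0.0032). PECAM1, an adhesion molecule of platelets and endothelium, had 25.6, 25.9 and 29.3 CPM in sgUFM1, against 6.53, 9.96 and 10.3 CPM in the controls, and rose by 1.55 (SE 0.18, edgeR adjusted p = 0.0018) on the log2 scale.

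Among the other genes of the 12 highest differences, CYTH4, an exchange factor for ARF GTPases, rose by 1.52 (SE 0.14), DHRS3, a retinaldehyde reductase, by 1.51 (SE 0.20), and ABCG1, a sterol exporter, by 1.51 (SE 0.20). AGR2, a disulfide isomerase of the ER in mucus-secreting cells, rose by 1.46 (SE 0.18), and TSPOAP1 by 1.40 (SE 0.20). EHF, an epithelial transcription factor of the ETS family, rose by 1.83 (SE 0.41), the adhesion receptor ADGRD1 by 1.75 (SE 0.33) and the trefoil peptide TFF2 by 1.56 (SE 0.27). These last 3 were low genes, with control means of 2.74, 1.62 and 2.15 CPM. The calls ended for EHF and ADGRD1 without sgUFM1 replicate 1, 2 or 3 (edgeR adjusted p from 0.068 to 0.14) and TFF2 without sgUFM1 replicate 2 or 3 (edgeR adjusted p from 0.063 to 0.075). These 12 genes had to pass the test with and without GC correction, so the distance between their groups adds no support. Exons of BDKRB2, TSPOAP1 and ADGRD1 overlap those of other annotated genes, so part of these reads is uncertain. The sources used here do not state whether reads were counted by strand.

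**Figure D2:**
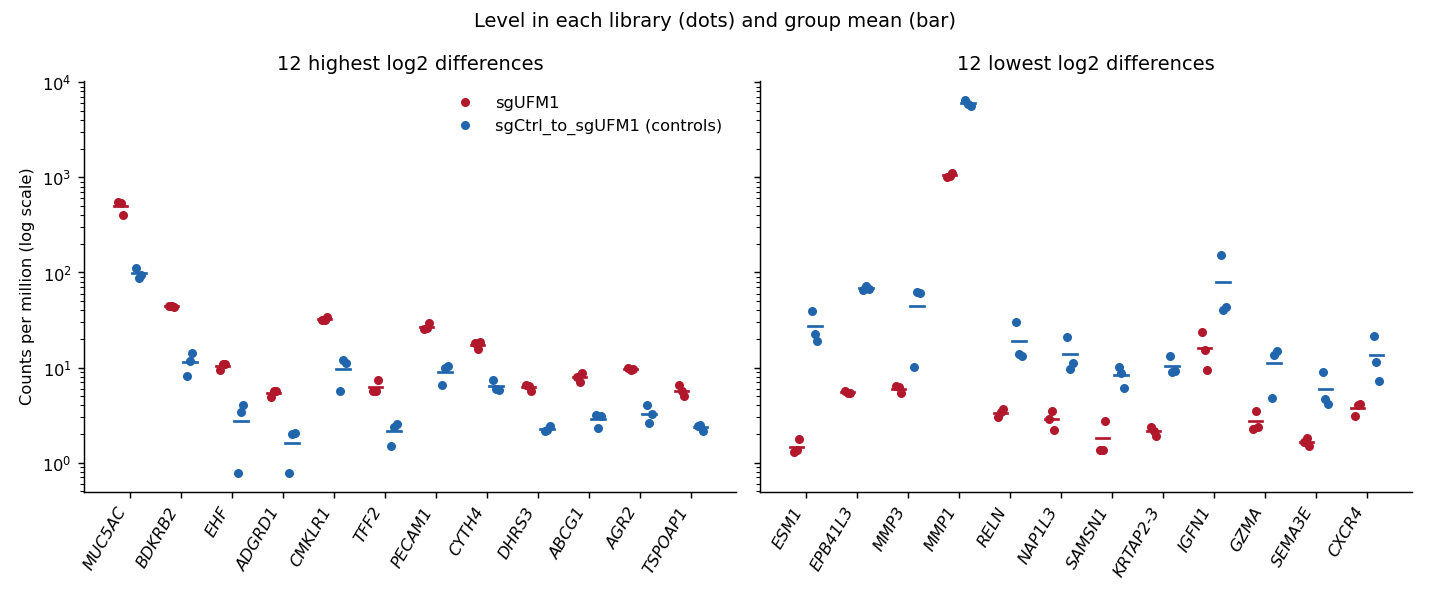
Level in CPM (vertical axis, log scale) of the 12 genes with the highest and the 12 with the lowest log2 differences, with sgUFM1 libraries left of the controls (dots) and the group mean (bar). The genes were chosen for extreme differences, so the gap between the 2 groups, seen for all 24, adds no support. Over all tested genes the groups did not overlap for 16.9% in the higher and 14.3% in the lower direction. Control replicate 1 stands apart from the other controls for genes such as EHF, MMP3 and IGFN1.

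The steepest fall was that of ESM1, a secreted proteoglycan known from endothelium (ENSG00000164283, GRCh38 chromosome 5, 54977864 to 55022671). It had 1.3, 1.37 and 1.77 CPM in sgUFM1, against 39.6, 22.4 and 19.3 CPM in the controls. The groups did not overlap, and it fell by 4.27 (SE 0.28) on the log2 scale (edgeR adjusted p = 5.8e-05). EPB41L3, which links membrane proteins to the actin cytoskeleton (GRCh38 chromosome 18, 5392381 to 5630700), had 5.69, 5.47 and 5.37 CPM in sgUFM1, against 64.8, 72.3 and 67.1 CPM in the controls, a log2 difference of -3.67 (SE 0.11, edgeR adjusted p = 9.9e-08). The interstitial collagenase MMP1 (GRCh38 chromosome 11, 102789920 to 102798160) had 1004, 1043 and 1098 CPM in sgUFM1, against 6550, 5834 and 5673 CPM in the controls. It fell by 2.62 (SE 0.08) (edgeR adjusted p = 9.9e-08), with no overlap between the groups.

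RELN, a large secreted glycoprotein, had 3.03, 3.39 and 3.67 CPM in sgUFM1, against 30.5, 13.9 and 13.3 CPM in the controls, and NAP1L3, a histone chaperone-like gene, had 2.91, 3.52 and 2.21 CPM in sgUFM1, against 20.9, 9.78 and 11.2 CPM in the controls. For both, control replicate 1 was the highest library, and the log2 differences were -2.56 (SE 0.30, edgeR adjusted p = 0.002) and -2.37 (SE 0.29, edgeR adjusted p = 0.0022). The signalling adaptor SAMSN1 fell by 2.33 (SE 0.29), the keratin-associated protein KRTAP2-3 by 2.25 (SE 0.21), the guidance cue SEMA3E by 1.93 (SE 0.30) and the chemokine receptor CXCR4 by 1.90 (SE 0.33). The stromelysin MMP3 fell by 3.002 (SE 0.58), with 6.37, 6.26 and 5.37 CPM in sgUFM1, against 10.1, 63 and 60.9 CPM in the controls, where control replicate 1 was the lowest control. IGFN1, with 23.8, 15.3 and 9.36 CPM in sgUFM1, against 154, 40.4 and 43.8 CPM in the controls, fell by 2.18 (SE 0.48), and by 1.32 without control replicate 1. The granule protease GZMA fell by 2.14 (SE 0.41). Calls were lost for MMP3, IGFN1, GZMA and CXCR4 without sgUFM1 replicate 1, 2 or 3 (edgeR adjusted p from 0.075 to 0.15) and SEMA3E without sgUFM1 replicate 2 or 3 (edgeR adjusted p from 0.057 to 0.062). Exons of ESM1, MMP1, SAMSN1, MMP3 and IGFN1 overlap those of other annotated genes, so part of these reads is uncertain.

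Calls among genes of the ER lay mostly upward. The ER stress list holds targets of ATF6 and of the IRE1-XBP1 branch, the sensors that raise chaperones and degradation factors when unfolded proteins build up. Of its 38 tested members 7 rose and 0 fell, beside 3.89% and 2.99% of all genes, and its median log2 difference was 0.21, against -0.0072 over all genes tested. Without control replicate 1 the same list had 17 higher and 1 lower, beside 12.7% and 14.4% of all genes. XBP1, the transcription factor that IRE1 activates by splicing (GRCh38 chromosome 22, 28794555 to 28800597), had 78.05, 80.9 and 80.9 CPM in sgUFM1, against 58.4, 52.3 and 53.9 CPM in the controls. The groups did not overlap, the log2 difference was 0.51 (SE 0.06, edgeR adjusted p = 0.0029), and the call held whichever 1 of the 6 libraries was left out.

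EDEM1, which hands misfolded glycoproteins to degradation, had 111, 109 and 119.9 CPM in sgUFM1, against 89.02, 77 and 70.3 CPM in the controls and rose by 0.50 (SE 0.08). DNAJB9, a co-chaperone of HSPA5, rose by 0.58 (SE 0.13), the folding sensor UGGT1 by 0.31 (SE 0.07), the degradation ligase SYVN1 by 0.29 (SE 0.06), the transcription factor CREB3L2 by 0.29 (SE 0.06) and the chaperone HSP90B1 by 0.26 (SE 0.06). The threshold was missed by DNAJB9, UGGT1, SYVN1, CREB3L2 and HSP90B1 without sgUFM1 replicate 1, 2 or 3 (edgeR adjusted p from 0.068 to 0.18) and EDEM1 without sgUFM1 replicate 2 or 3 (edgeR adjusted p from 0.054 to 0.064). Calls also ended for UGGT1, SYVN1, CREB3L2 and HSP90B1 without control replicate 2 or 3 (edgeR adjusted p from 0.062 to 0.15) and DNAJB9 without control replicate 3 (edgeR adjusted p = 0.09). HSPA5, the main chaperone of the ER lumen, had 917, 894 and 931 CPM in sgUFM1, against 799, 707 and 703 CPM in the controls. Its groups did not overlap, but its log2 difference of 0.25 (SE 0.07, edgeR adjusted p = 0.0505) missed the threshold. CRELD2, with -0.33 (SE 0.12, edgeR adjusted p = 0.12), lay in the opposite direction without passing. Exons of EDEM1, DNAJB9, SYVN1 and HSP90B1 overlap those of other annotated genes, so part of these reads is uncertain. Without GC correction SYVN1 was not called.

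The ER stress element, through which ATF6 acts on such promoters, was looked for in RefSeq promoter windows (GRCh38.p14, 250 bases before to 50 after each start), which 35 of the 39 list members have. It was searched on both strands as CCAAT and CCACG with 9 bases between them, and a shorter form as ATTGG and CCACG with 1 base between them, and no list member held both patterns. The first was in 7 of the 35 and in 0.0806% of all 27305 promoters, and the second in 3 of the 35 and in 0.0549% of all. The list was made of known targets of ATF6 and IRE1-XBP1, so this contrast comes with its making and adds no support. The window of XBP1, the called member with the smallest p, is shown whole because its transcript moved (chr22:28800520-28800819, minus strand), with the fixed letters of the element in capitals.
XBP1 promoter: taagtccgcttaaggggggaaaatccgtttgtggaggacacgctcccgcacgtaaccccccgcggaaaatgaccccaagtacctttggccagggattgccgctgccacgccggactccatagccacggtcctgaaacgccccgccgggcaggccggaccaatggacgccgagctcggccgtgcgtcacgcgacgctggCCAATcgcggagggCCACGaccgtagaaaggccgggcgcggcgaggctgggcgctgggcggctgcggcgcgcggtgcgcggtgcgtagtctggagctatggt
The matching sites of 4 chaperone genes are set beside it, read along the gene's own strand. Their fixed letters are alike because the search asked for them.
HSP90B1: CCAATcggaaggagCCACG
HSPA5: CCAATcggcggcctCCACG
CANX: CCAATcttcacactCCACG
CALR: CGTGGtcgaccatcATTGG
CALR carries the element in reverse orientation, and HSP90B1 holds a second match in reverse. The log2 differences of HSP90B1 and HSPA5 were 0.26 and 0.25. CRELD2 and SDF2L1, whose matches are not shown, stood at -0.33 and -0.071. CANX, a lectin chaperone of the membrane, stood at 0.24 (SE 0.12, edgeR adjusted p = 0.26), and CALR, its soluble partner, at -0.012 (SE 0.10, edgeR adjusted p = 0.96). Of the 10 members with either pattern 2 rose, with a median log2 difference of 0.22, and of the 25 tested members with a window and no match 5 rose, with a median of 0.21. A match of letters is a description and not evidence of binding.

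Of the 24 tested genes of ER export, 2 rose and 0 fell, and both are cargo adaptors of the COPII coat that buds vesicles from the ER. SEC24D (GRCh38 chromosome 4, 118722823 to 118838683) had 104, 99.3 and 97.8 CPM in sgUFM1, against 46.4, 47.7 and 47.6 CPM in the controls. All sgUFM1 libraries lay above all controls, and the log2 difference was 1.003 (SE 0.07, edgeR adjusted p = 0.00016). SEC24A had 80.2, 97.6 and 90.3 CPM in sgUFM1, against 56.7, 54.9 and 56.7 CPM in the controls, a difference of 0.54 (SE 0.07, edgeR adjusted p = 0.004), and its exons overlap those of SAR1B on the other strand. The paralog SEC24C stood at 0.21 (SE 0.06, edgeR adjusted p = 0.077), and the outer coat gene SEC31A at 0.26 (SE 0.07, edgeR adjusted p = 0.054). The median of the list was 0.20 and its counts stand beside 3.89% higher and 2.99% lower of all genes. Without control replicate 1 it had 16 higher and 0 lower, beside 12.7% and 14.4% of all genes.

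At the translocon, where UFM1 meets the docked ribosome, 6 of 42 tested genes rose and 0 fell, beside 3.89% and 2.99% of all genes, with a median of 0.11. The counts were 11 higher and 2 lower without control replicate 1, beside 12.7% and 14.4%. The channel subunit SEC61A1 rose by 0.41 (SE 0.08), the catalytic oligosaccharyltransferase subunit STT3B by 0.37 (SE 0.07), the translocon-associated protein SSR1 by 0.45 (SE 0.10), the signal recognition receptor SRPRA by 0.39 (SE 0.09), TRAM1 by 0.28 (SE 0.06) and SEC62, which is also an ER-phagy receptor, by 0.29 (SE 0.07). SEC61A1, STT3B and SEC62 lie on chromosome 3, and without genes of chromosomes 3 and 18 the list had 3 of 33 higher and a median of 0.051. Over all tested genes outside these chromosomes 477 of 13911 were higher. Of 10 ER-phagy receptors, which tether ER to autophagosomes, SEC62 and TEX264 rose, both on chromosome 3, and TEX264 stood at 0.36 (SE 0.09, edgeR adjusted p = 0.049). No call remained for SEC61A1, STT3B, SSR1, SRPRA, TRAM1, SEC62 and TEX264 without sgUFM1 replicate 1, 2 or 3 (edgeR adjusted p from 0.06 to 0.19). Calls were also lost for SRPRA, TRAM1, SEC62 and TEX264 without control replicate 2 or 3 (edgeR adjusted p from 0.053 to 0.11) and STT3B and SSR1 without control replicate 3 (edgeR adjusted p from 0.055 to 0.065). Exons of SEC61A1, SSR1, SRPRA, SEC62 and TEX264 overlap those of other annotated genes, so part of these reads is uncertain. Without GC correction TEX264 was not called.

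The ATF4 list, genes of the integrated stress response that slows translation and raises amino acid supply, had 4 of 31 higher and 0 lower, with a median of 0.096, beside 3.89% and 2.99% of all genes, and 15 higher and 1 lower without control replicate 1, beside 12.7% and 14.4%. DDIT4, an inhibitor of mTORC1 signalling, had 96.5, 89.8 and 84.8 CPM in sgUFM1, against 62.3, 57.7 and 60.8 CPM in the controls. Its log2 difference was 0.72 (SE 0.06, edgeR adjusted p = 0.00039), and the call held whichever library was left out. The lipoprotein receptor VLDLR rose by 0.65 (SE 0.14), the mitochondrial enzyme PCK2 by 0.57 (SE 0.13) and the pseudokinase TRIB3 by 0.31 (SE 0.08). Exons of DDIT4 and VLDLR overlap those of other annotated genes, so part of these reads is uncertain. The CPM of PCK2 and TRIB3 overlapped between the groups. Without GC correction PCK2 and TRIB3 were not called. The calls ended for VLDLR, PCK2 and TRIB3 without sgUFM1 replicate 1, 2 or 3 (edgeR adjusted p from 0.084 to 0.2). The threshold was also missed by VLDLR, PCK2 and TRIB3 without control replicate 2 or 3 (edgeR adjusted p from 0.071 to 0.13). ATF4 itself had 0.22 (SE 0.07, edgeR adjusted p = 0.091).

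**Figure D3:**
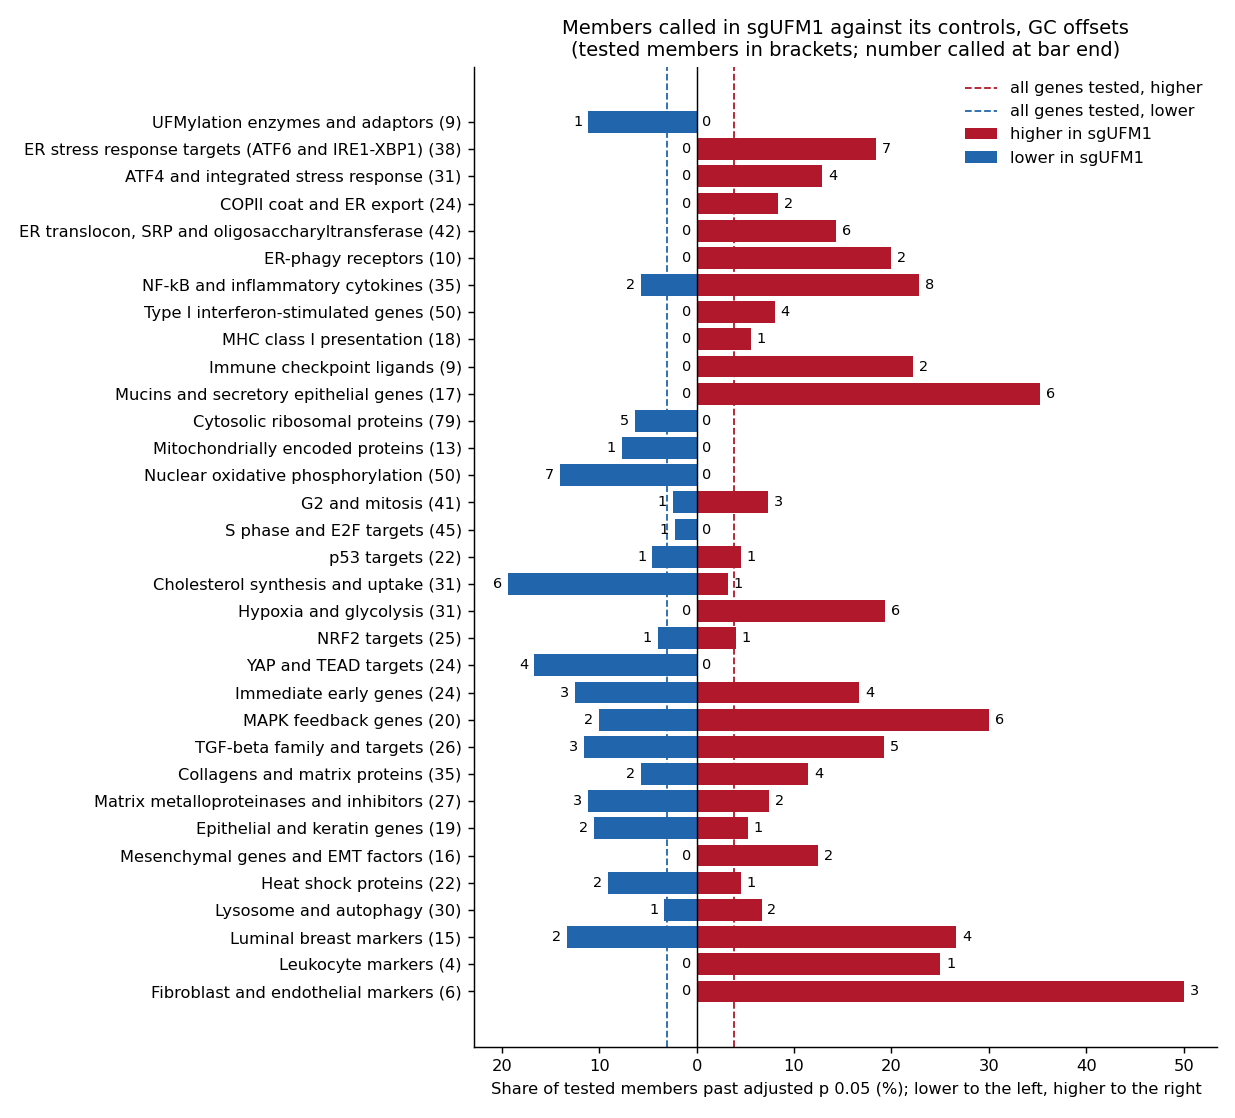
Share of the tested members of each gene list, in percent of tested members, that rose (right) or fell (left) in sgUFM1 against its controls at an edgeR adjusted p under 0.05. Numbers at the bars count members and dashed lines mark the shares over all genes tested, 3.89% and 2.99%.

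Mucins and secretory epithelial genes had 6 of 17 tested members higher and 0 lower, with a median log2 difference of 0.97, beside 3.89% and 2.99% of all genes. Besides MUC5AC, AGR2, TFF2 and EHF, described above, the trefoil peptide TFF1 rose by 1.87 (SE 0.36) and SPDEF, a transcription factor of goblet cells, by 0.96 (SE 0.24). SPDEF averaged 54.6 ± 6.68 CPM in sgUFM1 and 31.97 ± 11.5 CPM in the controls (SD, n = 3 each). TFF1 was low throughout, with 3.28, 1.76 and 2.21 CPM in sgUFM1, against 0.84, 0.694 and 0.499 CPM in the controls. Calls were lost for TFF1 and SPDEF without sgUFM1 replicate 1, 2 or 3 (edgeR adjusted p from 0.06 to 0.17). Nor did a call remain for TFF1 and SPDEF without control replicate 3 (edgeR adjusted p from 0.061 to 0.065). Without GC correction SPDEF was not called. The gel-forming mucin MUC5B, with 64.1, 63.7 and 46.4 CPM in sgUFM1, against 49.5, 9.08 and 10.7 CPM in the controls, stood at 1.58 (SE 0.47, edgeR adjusted p = 0.077), and control replicate 1 was the library farthest from its group. Without that library 13 of the 17 members were higher and 0 lower, beside 12.7% and 14.4% of all genes. Markers of luminal breast cells, which share AGR2, SPDEF and TFF1 with this list, had 4 of 15 higher and 2 lower: XBP1 was among the higher ones and KRT8 among the lower ones. The luminal list had 9 higher and 3 lower without control replicate 1. The luminal factor GATA3 had 4.41 CPM in sgUFM1 against 4.59 CPM in the controls and FOXA1 24.7 CPM in sgUFM1 against 23.1 CPM in the controls, and the oestrogen receptor ESR1 at most 0.433 CPM in sgUFM1 and 0.441 CPM in the controls. The keratin KRT19, a luminal marker too, stood at 140 to 142 CPM in sgUFM1 and 130 to 155 CPM in the controls.

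Markers of cells other than carcinoma cells were measured beside these. In bulk RNA, a change in the number of cells that express a gene and a change in RNA per cell cannot be told apart. The summed level of the leukocyte markers, among them PTPRC, CD3E, CD14 and LYZ, was 2.85 to 3 CPM in sgUFM1 and 2.12 to 3.88 CPM in the controls, with CD3E at 0 in all 6 libraries and PTPRC at no more than 0.0652 CPM. The 4 endothelial markers (CDH5, VWF, KDR and TEK) summed to 2.97 to 3.46 CPM in sgUFM1 and 3.18 to 6.85 CPM in the controls, with CDH5 at most 0.196 CPM in sgUFM1 and 0 CPM in the controls. The 4 fibroblast markers (DCN, LUM, PDGFRA and COL1A1) summed to 9.97 to 13.5 CPM in sgUFM1 and 7.88 to 17 CPM in the controls, with LUM at 0 in all. The summed levels of longer lists, which hold some genes that these cells express, lay higher in sgUFM1. The 16 fibroblast and endothelial markers summed to 271 to 289.8 CPM in sgUFM1 and 206 to 229.1 CPM in the controls. Of the 6 tested ones 3 were higher and 0 lower, with a median log2 difference of 0.37. The 16 leukocyte markers summed to 144.8 to 157.8 CPM in sgUFM1 and 87.5 to 114.7 CPM in the controls. Of the 4 tested ones 1 was higher and 0 lower. Beside these counts stand 3.89% and 2.99% of all genes, and without control replicate 1 the first list had 4 higher and 1 lower. The part of other cells in these values was not tested. PECAM1 rose as above, the endothelial adhesion molecule ESAM by 0.52 (SE 0.06), the invariant chain CD74 by 0.64 (SE 0.11) and the growth factor receptor PDGFRB by 0.68 (SE 0.17). The threshold was missed by CD74 and PDGFRB without sgUFM1 replicate 1, 2 or 3 (edgeR adjusted p from 0.068 to 0.17). Calls also ended for PDGFRB without control replicate 2 or 3 (edgeR adjusted p from 0.13 to 0.14). Without GC correction PDGFRB was not called.

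Inflammatory genes moved both ways. The NF-kB and cytokine list had 8 of 35 higher and 2 lower, with a median of 0.24, beside 3.89% and 2.99% of all genes, and 14 higher and 7 lower of 36 without control replicate 1, beside 12.7% and 14.4%. CCL2, the monocyte chemoattractant, had 49.7, 52.01 and 55.9 CPM in sgUFM1, against 158, 153 and 143 CPM in the controls. It fell by 1.59 (SE 0.07) (edgeR adjusted p = 2e-06), with no overlap between the groups, and held its call whichever library was left out. ICAM1, the adhesion ligand for leukocytes, rose by 0.60 (SE 0.09), and the cytokine IL11 by 0.60 (SE 0.12), at 962 CPM in sgUFM1 against 686 CPM in the controls. PTGS2, the inducible cyclooxygenase, had 563, 623 and 599 CPM in sgUFM1, against 118, 305 and 296 CPM in the controls, a difference of 1.16 (SE 0.30, edgeR adjusted p = 0.048). IRAK2 rose by 0.58 (SE 0.14), TRAF1 by 0.44 (SE 0.10), BCL3 by 0.40 (SE 0.10), CSF1 by 0.28 (SE 0.07) and NFKB2 by 0.24 (SE 0.06), while NFKBIE, an inhibitor of NF-kB, fell by 0.28 (SE 0.07). No call remained for IL11, PTGS2, IRAK2, TRAF1, BCL3, CSF1, NFKB2 and NFKBIE without sgUFM1 replicate 1, 2 or 3 (edgeR adjusted p from 0.096 to 0.19) and ICAM1 without sgUFM1 replicate 1 or 3 (edgeR adjusted p from 0.054 to 0.058). Calls were also lost for TRAF1, BCL3, CSF1, NFKB2 and NFKBIE without control replicate 2 or 3 (edgeR adjusted p from 0.056 to 0.16), PTGS2 without control replicate 3 (edgeR adjusted p = 0.059) and IRAK2 without control replicate 2 (edgeR adjusted p = 0.065). Exons of ICAM1 and BCL3 overlap those of other annotated genes, so part of these reads is uncertain. The CPM of BCL3 and NFKB2 overlapped between the groups. Without GC correction BCL3, CSF1 and NFKB2 were not called. The median of this list was 0.15 without GC correction.

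Of 50 genes induced by type I interferon 4 rose and 0 fell, beside 3.89% and 2.99% of all genes, with a median of 0.11. Leaving out control replicate 1 gave 9 higher and 2 lower, beside 12.7% and 14.4%. The antiviral gene OAS2 rose by 0.57 (SE 0.10), MX2 by 1.09 (SE 0.24), ISG20 by 0.53 (SE 0.13) and LGALS3BP by 0.35 (SE 0.08). Of 18 genes of MHC class I presentation ERAP1, which trims peptides in the ER, was the single one called, at 0.44 (SE 0.09, edgeR adjusted p = 0.023). Of 9 checkpoint ligands CD274, which encodes PD-L1, had 47.6, 49.5 and 46.2 CPM in sgUFM1, against 36.6, 28.1 and 24.8 CPM in the controls and rose by 0.57 (SE 0.11), and CD276 rose by 0.31 (SE 0.07). The MHC list had 4 higher and 1 lower and the checkpoint list 4 higher and 0 lower without control replicate 1. CD274 lies in a window of 50 genes on chromosome 9 with a median log2 difference of 0.22 in sgUFM1 and 0.21 in sgUFL1. The calls ended for OAS2, MX2, ISG20, LGALS3BP, ERAP1, CD274 and CD276 without sgUFM1 replicate 1, 2 or 3 (edgeR adjusted p from 0.068 to 0.18). The threshold was also missed by ISG20, LGALS3BP, CD274 and CD276 without control replicate 2 or 3 (edgeR adjusted p from 0.051 to 0.12) and MX2 and ERAP1 without control replicate 2 (edgeR adjusted p from 0.051 to 0.089). Exons of ERAP1 overlap those of other annotated genes, so part of these reads is uncertain. Without GC correction ISG20, LGALS3BP and CD276 were not called.

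Groups of mitochondrial and ribosomal genes had calls in the downward direction, of small size. Of 50 nuclear genes of oxidative phosphorylation 7 fell and 0 rose, with a median of -0.16, beside 2.99% lower and 3.89% higher of all genes, and 30 fell and 0 rose without control replicate 1, beside 14.4% and 12.7%. The ATP synthase subunit ATP5PD fell by 0.43 (SE 0.08), the complex I subunit NDUFV1 by 0.37 (SE 0.07), ATP5MC3 by 0.33 (SE 0.07) and the cytochrome oxidase subunit COX6C by 0.34 (SE 0.07). Of 79 cytosolic ribosomal protein genes 5 fell and 0 rose, with a median of -0.088, beside the same 2.99% and 3.89%, and 52 fell and 3 rose without control replicate 1, beside 14.4% and 12.7%. RPL30 fell by 0.52 (SE 0.11), RPL17 by 0.46 (SE 0.11), RPS3 by 0.37 (SE 0.08) and FAU by 0.30 (SE 0.07), and such genes have near-identical pseudogenes that can take their reads. Of 13 mitochondrially encoded genes MT-ND3 fell, by 0.43 (SE 0.09). Set against sgCtrl_to_sgUFL1, the ribosomal list had 1 higher and 0 lower and the oxidative phosphorylation list 1 higher and 3 lower. Calls were lost for ATP5PD, NDUFV1, ATP5MC3, COX6C, RPL30, RPL17, RPS3, FAU and MT-ND3 without sgUFM1 replicate 1, 2 or 3 (edgeR adjusted p from 0.051 to 0.2). Nor did a call remain for ATP5MC3, COX6C, RPL30, RPL17, RPS3, FAU and MT-ND3 without control replicate 2 or 3 (edgeR adjusted p from 0.058 to 0.15). Exons of ATP5PD, NDUFV1, ATP5MC3, RPL30, RPL17, RPS3 and FAU overlap those of other annotated genes, so part of these reads is uncertain. Without GC correction COX6C was not called.

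In cholesterol synthesis 6 of 31 genes fell and 1 rose, beside 2.99% and 3.89% of all genes, with a median of -0.12. Without control replicate 1 it was 13 lower and 3 higher, beside 14.4% and 12.7%. FDFT1, squalene synthase, had 82.3, 84.2 and 89.97 CPM in sgUFM1, against 119.8, 120.3 and 122 CPM in the controls and fell by 0.53 (SE 0.07) (edgeR adjusted p = 0.0029), a call that held whichever library was left out. Lanosterol synthase LSS fell by 0.37 (SE 0.07), DHCR7 by 0.39 (SE 0.08), SC5D by 0.43 (SE 0.09), HSD17B7 by 0.52 (SE 0.13) and ACLY by 0.29 (SE 0.07), while SREBF1, a regulator of lipid genes, rose by 0.30 (SE 0.07). The threshold was missed by LSS, SC5D, HSD17B7, ACLY and SREBF1 without sgUFM1 replicate 1, 2 or 3 (edgeR adjusted p from 0.068 to 0.18) and DHCR7 without sgUFM1 replicate 1 or 2 (edgeR adjusted p from 0.11 to 0.13). Calls also ended for DHCR7, SC5D, HSD17B7, ACLY and SREBF1 without control replicate 2 or 3 (edgeR adjusted p from 0.064 to 0.13) and LSS without control replicate 2 (edgeR adjusted p = 0.056). Exons of FDFT1, LSS, ACLY and SREBF1 overlap those of other annotated genes, so part of these reads is uncertain. The CPM of SREBF1 overlapped between the groups. Without GC correction SC5D, HSD17B7 and SREBF1 were not called. Among hypoxia and glycolysis genes 6 of 31 rose and 0 fell, with a median of 0.057 that was -0.024 without GC correction, and 11 were higher and 7 lower without control replicate 1. The carbonic anhydrase CA9 rose by 1.02 (SE 0.19), the angiogenic factor VEGFA by 0.86 (SE 0.21), PFKFB4 by 0.58 (SE 0.11), P4HA2 by 0.49 (SE 0.12), NDRG1 by 0.37 (SE 0.09) and BNIP3L by 0.24 (SE 0.06). No call remained for CA9, VEGFA, PFKFB4, P4HA2, NDRG1 and BNIP3L without sgUFM1 replicate 1, 2 or 3 (edgeR adjusted p from 0.069 to 0.19). Calls were also lost for NDRG1 and BNIP3L without control replicate 2 or 3 (edgeR adjusted p from 0.11 to 0.13) and P4HA2 without control replicate 3 (edgeR adjusted p = 0.062). Exons of CA9, VEGFA, PFKFB4, P4HA2 and BNIP3L overlap those of other annotated genes, so part of these reads is uncertain.

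Growth signalling genes moved in both directions. The immediate early list, transcription factors and regulators that growth factors switch on within minutes, had 4 of 24 higher and 3 lower, beside 3.89% and 2.99% of all genes, and 7 higher and 3 lower of 25 without control replicate 1, beside 12.7% and 14.4%. EGR1 had 76.7, 80.95 and 76.1 CPM in sgUFM1, against 37.2, 42.8 and 45 CPM in the controls, a log2 difference of 0.94 (SE 0.10, edgeR adjusted p = 0.0011). DUSP1, a phosphatase that shuts off MAP kinases, had 62.7, 65.2 and 63.7 CPM in sgUFM1, against 177, 121 and 123 CPM in the controls, a difference of -1.09 (SE 0.12, edgeR adjusted p = 0.0016). Both calls held whichever library was left out, and the groups did not overlap. IER3 rose by 0.53 (SE 0.10), NR4A2 by 0.76 (SE 0.20) and JUND by 0.36 (SE 0.07), while MYC fell by 0.40 (SE 0.08) and IER5 by 0.30 (SE 0.06). The log2 difference of JUND was 0.016 without GC correction. Feedback genes of the MAP kinase pathway had 6 of 20 higher and 2 lower, and 8 and 3 without control replicate 1: SPRY1, an inhibitor of receptor tyrosine kinase signalling, had 48.9, 45.5 and 48.4 CPM in sgUFM1, against 32.7, 28.5 and 28.6 CPM in the controls and rose by 0.61 (SE 0.08), and SPRY4 rose by 0.65 (SE 0.10) and SPRED2 by 0.37 (SE 0.06), while DUSP14 fell by 0.47 (SE 0.07). The calls ended for IER3, NR4A2, JUND, MYC, IER5 and SPRED2 without sgUFM1 replicate 1, 2 or 3 (edgeR adjusted p from 0.051 to 0.22) and SPRY4 and DUSP14 without sgUFM1 replicate 2 or 3 (edgeR adjusted p from 0.054 to 0.057). The threshold was also missed by NR4A2 and IER5 without control replicate 2 or 3 (edgeR adjusted p from 0.075 to 0.099) and JUND and MYC without control replicate 3 (edgeR adjusted p from 0.064 to 0.067). Exons of IER3 overlap those of other annotated genes, so part of these reads is uncertain. The CPM of JUND overlapped between the groups. Without GC correction JUND was not called.

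Genes of the matrix and of TGF-beta signalling were split as well. In the TGF-beta list 5 of 26 rose and 3 fell, beside 3.89% and 2.99% of all genes, and 7 were higher and 6 lower without control replicate 1, beside 12.7% and 14.4%. LTBP1, which binds latent TGF-beta in the matrix, had 188, 190.1 and 186 CPM in sgUFM1, against 95.4, 79.02 and 75.5 CPM in the controls, and rose by 1.13 (SE 0.07, edgeR adjusted p = 5.4e-05). The receptors TGFBR2 and TGFBR1 rose by 0.54 (SE 0.10) and 0.53 (SE 0.10), LTBP3 by 0.53 (SE 0.09) and SMAD3 by 0.31 (SE 0.06), while the activin antagonist FST fell by 0.54 (SE 0.07), the ligand TGFB2 by 0.52 (SE 0.12) and the target ID3 by 0.67 (SE 0.16). Of 35 collagen and matrix genes 4 rose and 2 fell, and 14 were higher and 8 lower without control replicate 1. COL8A1 had 76.5, 73.7 and 71.9 CPM in sgUFM1, against 149.7, 131 and 133 CPM in the controls and COL12A1 34.1, 38.5 and 31.4 CPM in sgUFM1, against 99.1, 68.5 and 66.9 CPM in the controls. They fell by 0.94 (SE 0.06) and 1.23 (SE 0.13), with no overlap between groups. COL7A1, the collagen of anchoring fibrils, rose by 1.26 (SE 0.24) with 304, 255 and 229 CPM in sgUFM1, against 73.8, 155 and 144 CPM in the controls, LAMB1 rose by 0.64 (SE 0.15), fibronectin (FN1) by 0.47 (SE 0.09) and agrin (AGRN) by 0.41 (SE 0.08). Calls were lost for TGFBR2, TGFBR1, SMAD3, TGFB2, ID3, COL7A1, LAMB1, FN1 and AGRN without sgUFM1 replicate 1, 2 or 3 (edgeR adjusted p from 0.069 to 0.16) and LTBP3 without sgUFM1 replicate 1 or 2 (edgeR adjusted p from 0.072 to 0.081). Nor did a call remain for SMAD3, ID3, FN1 and AGRN without control replicate 2 or 3 (edgeR adjusted p from 0.053 to 0.11) and TGFB2 without control replicate 3 (edgeR adjusted p = 0.08). AGRN had a log2 difference of 0.14 without GC correction. Exons of LTBP1, SMAD3, TGFB2, COL7A1, LAMB1 and AGRN overlap those of other annotated genes, so part of these reads is uncertain. The CPM of AGRN overlapped between the groups. Without GC correction LTBP3, TGFB2 and AGRN were not called. TGFBR2 and COL7A1 lie in the stretch of chromosome 3 described below.

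Of 27 metalloproteinases and inhibitors 2 rose and 3 fell, beside 3.89% and 2.99% of all genes, and 6 were higher and 5 lower without control replicate 1, beside 12.7% and 14.4%. Besides MMP1 and MMP3, ADAMTS6 fell by 0.74 (SE 0.14), while ADAM19 rose by 0.51 (SE 0.07) and ADAM8 by 0.69 (SE 0.13), and ADAM19 kept its call whichever library was left out with exons that overlap other genes. The summed level of the list was 4761 to 4792 CPM in sgUFM1 and 9024 to 9163 CPM in the controls, and MMP1 alone averaged 1048 CPM in sgUFM1 against 6019 CPM in the controls. Among targets of YAP and TEAD 4 of 24 fell and 0 rose, beside 2.99% and 3.89% of all genes, and 9 were lower and 3 higher without control replicate 1, beside 14.4% and 12.7%. FJX1 fell by 0.47 (SE 0.07), tissue factor F3 by 0.55 (SE 0.08), ANKRD1 by 0.56 (SE 0.13), and by 0.36 without control replicate 1, and TGFB2 as above. Epithelial and keratin genes had 1 of 19 higher and 2 lower, with a median of 0.23 that was 0.032 without GC correction, and 8 higher and 4 lower without control replicate 1. Keratins KRT7 and KRT8 fell by 0.46 (SE 0.08) and 0.32 (SE 0.08), and KRT86 rose by 0.57 (SE 0.15). Of 16 mesenchymal genes CDH11 and ITGA5 rose, by 0.67 (SE 0.12) and 0.36 (SE 0.07), with 3 higher and 3 lower without control replicate 1, and VIM stood at 0.11 (SE 0.10, edgeR adjusted p = 0.55). The p53 target GADD45A had 28.02, 24.2 and 20.6 CPM in sgUFM1, against 46.5, 38.1 and 42.5 CPM in the controls and fell by 0.74 (SE 0.10), and XPC rose by 0.53 (SE 0.12). The threshold was missed by ADAMTS6, ADAM8, F3, ANKRD1, KRT7, KRT8, KRT86, CDH11, ITGA5 and XPC without sgUFM1 replicate 1, 2 or 3 (edgeR adjusted p from 0.051 to 0.21) and FJX1 without sgUFM1 replicate 3 (edgeR adjusted p = 0.052). Calls also ended for KRT8, KRT86 and XPC without control replicate 2 or 3 (edgeR adjusted p from 0.077 to 0.15) and KRT7 without control replicate 3 (edgeR adjusted p = 0.053). Exons of KRT7, KRT8, KRT86, CDH11, ITGA5 and XPC overlap those of other annotated genes, so part of these reads is uncertain. The CPM of KRT86 overlapped between the groups. Without GC correction ADAM8 and KRT86 were not called.

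Genes of the cell cycle, heat shock, lysosomes and NRF2 had few calls, and more without control replicate 1, as had all genes together. In G2 and mitosis 3 of 41 rose and 1 fell, the mitotic activator CDC20 by 0.41 (SE 0.07) against a rise of the kinesin KIF20A by 0.33 (SE 0.06). In S phase 1 of 45 fell, the thymidylate synthase TYMS on chromosome 18, by 0.36 (SE 0.09). Heat shock proteins had 1 of 22 higher and 2 lower, lysosome genes 2 of 30 higher and 1 lower, and NRF2 targets 1 of 25 higher and 1 lower with a median of -0.19, all beside 3.89% and 2.99% of all genes. Without control replicate 1, and beside 12.7% higher and 14.4% lower of all genes, the counts were 8 higher and 5 lower in G2 and mitosis, 2 and 17 in S phase, 4 and 9 for heat shock proteins, 7 and 8 for lysosome genes and 2 and 12 for NRF2 targets. The co-chaperone FKBP4 fell by 0.36 (SE 0.06), the cathepsin CTSL rose by 0.38 (SE 0.07), and thioredoxin reductase TXNRD1 fell by 0.33 (SE 0.06). No call remained for CDC20, KIF20A, TYMS, FKBP4, CTSL and TXNRD1 without sgUFM1 replicate 1, 2 or 3 (edgeR adjusted p from 0.057 to 0.19). Calls were also lost for KIF20A and CTSL without control replicate 2 (edgeR adjusted p from 0.05 to 0.066) and TYMS and TXNRD1 without control replicate 2 or 3 (edgeR adjusted p from 0.058 to 0.15). Exons of KIF20A, TYMS and FKBP4 overlap those of other annotated genes, so part of these reads is uncertain.

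The share of genes called varied along the chromosomes. The 11190 genes with at least 5 CPM were put in gene order and cut into 223 windows of about 50 genes, whose median log2 differences lay between -0.28 and 0.28, against -0.11 to 0.13 when sgCtrl_to_sgUFM1 was set against sgCtrl_to_sgUFL1. The first 6 windows of chromosome 3 (GRCh38, 3126916 to 64688000, 307 genes) were 6 of the 8 highest. In that stretch 77 genes rose (25.1%) and 1 fell (0.326%), beside 4.22% and 3.69% of the 10360 genes on chromosomes other than 3 and 18, and 281 of the 307 had a log2 difference above 0. Its median log2 difference was 0.24 for sgUFM1 and 0.046 for sgUFL1 against their own controls. Per library, relative to the mean of both control sets, the median was 0.23, 0.24 and 0.26 in sgUFM1, against -0.033, 0.01 and -0.0024 in its controls. The other 357 genes of chromosome 3 had a median of 0.081, with 26 higher and 1 lower.

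Chromosome 18 went the other way, with 1 of 166 genes higher (0.602%) and 29 lower (17.5%). Its median log2 difference was -0.18, and -0.11 without GC correction, against -0.03 for sgUFL1, and per library the medians were -0.12, -0.18 and -0.19 in sgUFM1 and 0.1, 0.059 and 0.085 in the controls. In either stretch all sgUFM1 medians lay on one side of those of their own controls. In sgCtrl_to_sgUFL1 the medians were -0.023, 0.058 and 0.031 for the chromosome 3 stretch and -0.04, -0.061 and -0.13 for chromosome 18, where its replicate 3 lay below sgUFM1 replicate 1. Leaving out any 1 library kept the median of the chromosome 3 stretch between 0.24 and 0.26 and that of chromosome 18 between -0.18 and -0.17, while the calls in the first ranged from 5 higher, without sgUFM1 replicate 2, to 176 higher, without control replicate 1. Both stretches were chosen after their values were seen, so no test is given, and whether the number of DNA copies differed between the groups was not tested. EDEM1, STT3B, TEX264, IRAK2, XPC, PFKFB4, TGFBR2 and COL7A1 lie in the chromosome 3 stretch, and EPB41L3, TYMS and RPL17 lie on chromosome 18. Without genes of chromosomes 3 and 18, the ER stress list had 6 of 34 higher, the COPII list 2 of 21, the TGF-beta list 4 higher and 3 lower of 23 and the NF-kB list 7 higher and 2 lower of 33. Beside these counts stand 477 higher and 415 lower of all 13911 tested genes outside these chromosomes.

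**Figure D4:**
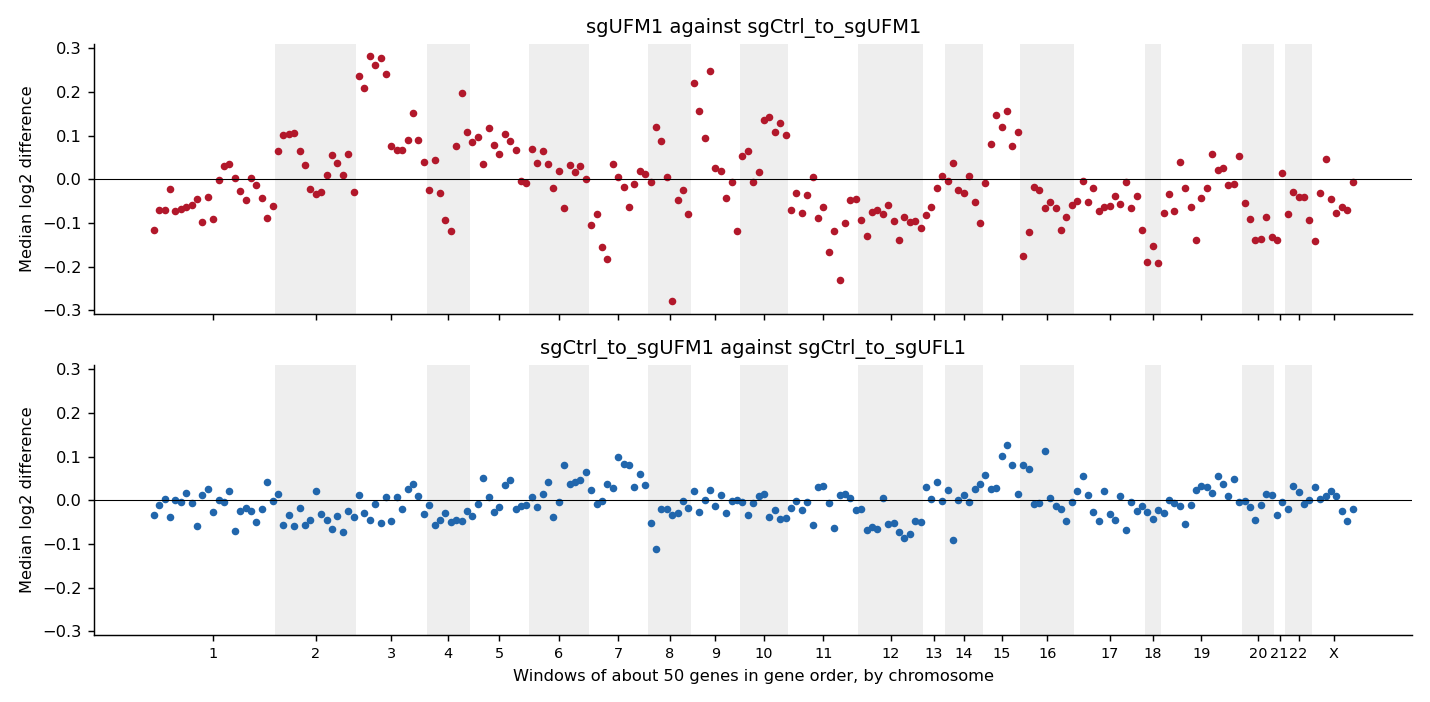
Median log2 difference (vertical axis) in windows of about 50 expressed genes in gene order along chromosomes 1 to 22 and X (horizontal axis, chromosomes in alternating shade), for sgUFM1 against its controls (upper) and for the 2 control sets against each other (lower). The first 6 windows of chromosome 3 lie at 0.21 to 0.28 and those of chromosome 18 at -0.19 to -0.15 in the upper plot, and the lower plot stays within -0.11 and 0.13.

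Whether these changes differ from those of the UFL1 guide was tested in 1 model over all 12 libraries, with the difference of sgUFM1 from its controls set against that of sgUFL1 from its own. Of 15821 genes tested, 576 had a higher sgUFM1 difference (3.64%) and 719 a lower one (4.54%). The counts moved by over 1.5 times with single libraries: they ranged from 234 higher, without sgUFL1 replicate 3, and 345 lower, without sgUFL1 replicate 2, to 1101 lower without sgCtrl_to_sgUFL1 replicate 2 and 1099 lower without control replicate 1, and they were also smaller without control replicate 2 or 3 (324 or 307 higher) or without sgUFM1 replicate 1, 2 or 3 (330, 238 or 246 higher). The difference between the guides was 2.79 (SE 0.24, edgeR adjusted p = 7.6e-05) on the log2 scale for MUC5AC, 2.27 (SE 0.28, edgeR adjusted p = 0.00051) for AGR2, 1.91 (SE 0.26, edgeR adjusted p = 0.0009) for BDKRB2 and 2.08 (SE 0.29, edgeR adjusted p = 0.001) for MYO16, an unconventional myosin. It was -4.37 (SE 0.40, edgeR adjusted p = 0.0001) for ESM1, -2.73 (SE 0.45, edgeR adjusted p = 0.0028) for RELN and -3.36 (SE 0.62, edgeR adjusted p = 0.0054) for the neural adhesion molecule CNTN1. In sgUFL1 against its own controls MUC5AC stood at -0.33, BDKRB2 at 0.044, ESM1 at 0.10 and RELN at 0.17, all with edgeR adjusted p over 0.05. AGR2 stood at -0.81 there (edgeR adjusted p = 0.066), and MYO16 was lower in every sgUFL1 library than in sgCtrl_to_sgUFL1, so part of their differences lay in sgUFL1. Some genes fell in both guides. MMP1 fell in sgUFL1 too (-1.68, with -2.62 in sgUFM1 and -0.93 (SE 0.11, edgeR adjusted p = 0.00031) for the difference between them), as did EPB41L3 (-1.40 in sgUFL1, with -2.27 (SE 0.14, edgeR adjusted p = 1.2e-06) for the difference). CCL2 fell in sgUFL1 (-1.23), and its difference between the guides, -0.36 (SE 0.15, edgeR adjusted p = 0.15), did not pass. The differences of SEC24D, LTBP1 and COL8A1 were 1.11 (SE 0.11, edgeR adjusted p = 0.00011), 1.33 (SE 0.13, edgeR adjusted p = 0.00011) and -0.98 (SE 0.09, edgeR adjusted p = 9.3e-05).

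Among lists, the sgUFM1 difference was the higher one for 7 and the lower one for 0 of the 25 listed COPII genes. It was so for 10 and 0 of the 39 genes of the ER stress list and 8 and 1 of the 42 of the translocon list. Beside these counts stand 3.64% higher and 4.54% lower of all 15821 genes in this comparison of guides. The sgUFM1 difference was the lower one for 28 of 79 ribosomal protein genes and 18 of 50 genes of oxidative phosphorylation. It was the higher one for 0 of either, beside the same shares. In sgUFL1 against its own controls 28 ribosomal protein genes rose and 12 genes of oxidative phosphorylation rose, and 3 COPII genes fell, beside 3.86% higher and 2.79% lower of 15175 genes. For F8A1, NUDT3 and ANO2 the difference in sgUFL1 was larger in size than that in sgUFM1, which did not pass the test. F8A1 had 11.9, 11.6 and 10.6 CPM in sgUFM1, against 9.37, 9.46 and 9.54 CPM in the controls, with 0.48 (SE 0.13, edgeR adjusted p = 0.0505), and 7.17, 6.1 and 7.86 CPM in sgUFL1 against 12.3, 13.1 and 12.3 CPM in sgCtrl_to_sgUFL1. NUDT3 had 15.03, 11.4 and 10.7 CPM in sgUFM1, against 16.3, 17.1 and 18.9 CPM in the controls, and 20.8, 24.7 and 19.8 CPM in sgUFL1 against 7.49, 5.81 and 4.62 CPM in sgCtrl_to_sgUFL1. The 2 control sets did not overlap for NUDT3, nor for F8A1. ANO2 was under 6 CPM in all libraries and stood at -1.19 (SE 0.40, edgeR adjusted p = 0.11) in sgUFM1. NUDT3 overlaps the read-through gene RPS10-NUDT3, and F8A1 lies in a repeated gene family.

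**Figure D5:**
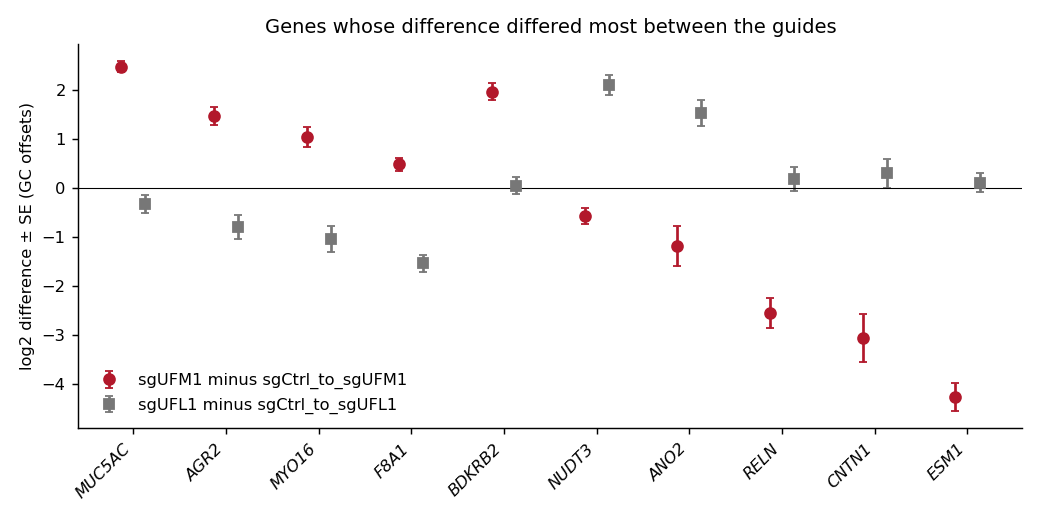
Log2 difference with its SE (vertical axis) of sgUFM1 from sgCtrl_to_sgUFM1 (circles, left) and of sgUFL1 from sgCtrl_to_sgUFL1 (squares, right) for the 10 genes with the most unequal differences (horizontal axis). For MUC5AC, BDKRB2, ESM1, RELN and CNTN1 the squares lie within 0.34 of 0, while for F8A1, ANO2 and NUDT3 they lie farther from 0 than the circles.

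The same sgUFM1 libraries were also set against sgCtrl_to_sgUFL1, which gave 603 higher (4.01%) and 528 lower (3.51%) of 15035 genes. These counts were 2170 and 1984 without sgCtrl_to_sgUFL1 replicate 2, 259 and 272 without its replicate 1, 260 and 216 without its replicate 3, while leaving out sgUFM1 replicate 1 gave 107 and 81, replicate 2 gave 92 and 74 and replicate 3 gave 114 and 99. The 2 comparisons share the sgUFM1 libraries, so their values are given side by side only. MUC5AC stood at 2.56 there and 2.47 against its own controls, ESM1 at -4.54 and -4.27, EPB41L3 at -3.75 and -3.67, MMP1 at -2.58 and -2.62, SEC24D at 0.85 and 1.003, and XBP1 at 0.48 and 0.51. UFM1 stood at -0.50 and -0.58. RPL30 stood at -0.0027 (edgeR adjusted p = 0.99) there and -0.52 against its own controls, and ATP5PD at -0.02 (edgeR adjusted p = 0.92) and -0.43. The 2 control sets set against each other gave 0 genes in either direction of 14996 by edgeR with GC offsets, with 856 at an unadjusted p under 0.05, and 162 higher and 3 lower without offsets.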

How the data were processed

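Total RNA from 12 MDA-MB-231 libraries was sequenced, and 6 of them enter the main comparison. Per the submitters' processing notes, the GRCh38 (hg38) build went with STAR 2.7.7a, featureCounts 2.0.0 and fastp 0.20.1, whose settings are not stated. The authors deposited raw counts per gene, with no normalization, and FPKM values, which per the file headers stand beside a gene length. For 9901 genes with at least 100 counts in every library, FPKM times gene length over count was constant for 1 pairing of columns, and 6 columns carried the other group's name in the count table; all counts were relabelled by the FPKM names. All 58735 gene IDs matched GENCODE 29, which gave GC content.

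Counts were tested with edgeR 4.0.16 (R 4.3.3) by glmQLFit and glmQLFTest after filterByExpr and TMM scaling, with per-library offsets from a lowess trend (span 0.3) of log2 CPM on gene GC content. Benjamini-Hochberg adjustment ran over all genes tested, at a threshold of 0.05. CPM are counts scaled to a common library total, without GC correction. The genes named for the 12 highest and 12 lowest differences were protein-coding and averaged at least 5 CPM in at least 1 group. They passed with and without offsets with the same sign. The 5 genes in each direction for the comparison of guides met the same conditions. Up to 4 members of each of 33 gene lists were named by smallest p among those called with GC offsets, without these conditions. UFM1 and UFL1 were named whatever their values. Other members are named to account for a list's calls or as its known representatives, and were chosen after their values were seen. The members and lists were chosen with earlier results of these data known, so no list is tested. DESeq2 1.42.0 and limma 3.58.1 on log2(FPKM + 0.5), which understates differences of low genes, were alternatives, as were other offsets, filters, scalings, left-out libraries and a replicate block. The fits were tested on simulated data with known changes. Some genes are not reported here.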

Additional observations from a re-analysis of the deposited data

Results flagged for a closer look

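There were 10 genes, 5 in each direction, singled out because the sgUFM1 difference and the sgUFL1 difference were unequal by a test of that inequality in 1 edgeR model over 12 libraries. Higher in sgUFM1 were MUC5AC by 2.79, AGR2 by 2.27, MYO16 by 2.08, F8A1 by 2.00 and BDKRB2 by 1.91 on the log2 scale. Lower were ESM1 at -4.37, CNTN1 at -3.36, RELN at -2.73, ANO2 at -2.71 and NUDT3 at -2.67. MYO16 had 5.38, 5.28 and 6.13 CPM in sgUFM1, against 2.52, 2.52 and 2.93 CPM in the controls, and 1.78, 1.44 and 2.18 CPM in sgUFL1 against 3.59, 3.99 and 4.11 CPM in sgCtrl_to_sgUFL1. Its 2 control sets did not overlap either. CNTN1 had 0.495, 0.521 and 0.19 CPM in sgUFM1, against 4.72, 3.28 and 1.56 CPM in the controls, and 7.84, 3.99 and 3.24 CPM in sgUFL1 against 6.17, 3.35 and 7.4 CPM in sgCtrl_to_sgUFL1. All 10 differences kept an edgeR adjusted p under 0.05 with each library left out in turn.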

How the results depend on the processing

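Of 2311 values of 116 named genes and list members under the alternatives, 1686 kept direction and side of the threshold, 625 kept direction but no longer passed, and 0 reversed. 25 genes kept their side of the threshold throughout, UFL1, which was not called in any of them, included. The 10 genes named for the comparison of guides kept their calls in all 160 values.

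In the main comparison limma on FPKM gave 371 higher with a pseudocount of 0.5, 357 with 0.1 and 375 with 1, and 90 higher and 103 lower without a filter on low values. Genes lower were 771 without GC offsets, 759 with no filter beyond 1 count and 945 with DESeq2 without offsets. Leaving out 1 library gave 77 to 1944 higher and 42 to 2206 lower. For the difference between guides the fit without offsets gave 2683 higher and 2828 lower, DESeq2 2826 and 2924, and leaving out 1 library 234 to 864 higher and 345 to 1101 lower. Against sgCtrl_to_sgUFL1, leaving out 1 library gave 92 to 2170 higher and 74 to 1984 lower. The control sets gave 162 higher and 3 lower without offsets, against 0 with them. The cause of these shifts was not tested.

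The replicate block with GC offsets gave 435 higher and 299 lower in the main comparison and 726 and 876 between guides, and without offsets 478 and 500. Deviations of same-numbered libraries correlated at 0.042, -0.0323 and 0.0173, so the numbers were not taken as pairs, and 2 sgUFM1 replicates correlated best with another number. Each group has 3 libraries of 15342793 to 16168105 counts, which limits the precision for low genes and small differences.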

Other observations

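Long noncoding RNAs were outside the naming rule, and those given here were chosen after their values were seen. UCA1, a noncoding RNA first known from bladder cancer, had a log2 difference of -3.004 (SE 0.36, edgeR adjusted p = 0.0022; 4.7 CPM in sgUFM1 against 37.6 CPM in the controls), and CYTOR one of -0.48 (SE 0.08, edgeR adjusted p = 0.011; 46.6 CPM in sgUFM1 against 62.6 CPM in the controls). ZMIZ1-AS1 stood at 1.46 (SE 0.21, edgeR adjusted p = 0.0055; 6.52 CPM in sgUFM1 against 2.37 CPM in the controls), SLCO4A1-AS1 at 0.65 (SE 0.09, edgeR adjusted p = 0.0031; 41.04 CPM in sgUFM1 against 27.9 CPM in the controls) and LUCAT1 at 0.76 (SE 0.20, edgeR adjusted p = 0.049; 27.2 CPM in sgUFM1 against 15.4 CPM in the controls). MIR3142HG, whose exons hold the precursor of MIR146A, stood at 0.63 (SE 0.14, edgeR adjusted p = 0.032; 43.8 CPM in sgUFM1 against 26.1 CPM in the controls). SNHG1, ZFAS1 and SNHG3, host genes of small nucleolar RNAs, had -0.39 (SE 0.09, edgeR adjusted p = 0.032; 114 CPM in sgUFM1 against 139.8 CPM in the controls), -0.37 (SE 0.09, edgeR adjusted p = 0.036; 35.2 CPM in sgUFM1 against 45.7 CPM in the controls) and -0.29 (SE 0.07, edgeR adjusted p = 0.032; 71.4 CPM in sgUFM1 against 83.3 CPM in the controls), and SNHG3 was not called without GC correction. Of 563 tested long intergenic RNAs 8 were higher and 12 lower, and of 625 annotated antisense RNAs 8 were higher and 6 lower. Beside these counts stand 3.89% higher and 2.99% lower of all genes. Several of these overlap other genes, and strand is not stated in the sources used here.

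Other windows of about 50 genes lay far from 0 too, again chosen after their values were seen. The lowest, the fifth on chromosome 8 (GRCh38, 79918717 to 98294393), had a median log2 difference of -0.28 with 11 genes lower and 0 higher, and -0.17 in sgUFL1. The tenth on chromosome 11 (77514936 to 95790409) had -0.23 with 12 lower, and -0.026 in sgUFL1. The fourth on chromosome 9 (86026146 to 98796965) had 0.25 with 15 higher and 1 lower, and 0.097 in sgUFL1.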
